A study of Mus musculus with 10 samples.

Results

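The 10 genes described here encode sensors of foreign or misplaced RNA and DNA and the proteins that pass their signal to the interferon genes. They are Ddx58, Ifih1, Dhx58, Mavs, Cgas, Tlr3, Tlr7, Tbk1, Irf3 and Zbp1, taken by name from a fixed list, and all 10 were found among the 41743 gene names of the count tables. Their RNA was measured by poly-A RNA sequencing in 4 lines made from the mouse osteosarcoma cell line K7M2 and in K7M2 itself. The 4 derived lines share a CRISPR/Cas9 disruption of Ezr, the gene of ezrin, a protein that ties the actin cortex to the plasma membrane. They differ in what was put back by stable transfection: ezrin T567A, whose residue T567 cannot be phosphorylated, ezrin T567D, which imitates the phosphorylated residue, wild-type ezrin, or an empty vector. Parental K7M2 cells, with no disruption, were the fifth group.

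Each group had 2 libraries, and each construct is represented by 1 stable line. The titles number the libraries 1 and 3 in parental, wild-type and T567D cells, and 2 and 3 in empty-vector and T567A cells. A number is thus missing in each line, and the titles do not say whether further libraries were made. A tag common to the titles of the derived lines leaves it possible that all 4 descend from 1 disrupted clone, and a difference from parental cells that they share cannot be told apart from a property of such a clone. Whether the paired libraries of a line are separate cultures is not stated in the labels, and p-values therefore measure the spread between libraries, which may be technical. Totals ranged from 14679424 to 18230763 counts, and 3 counts, used as the floor, corresponded to 0.167 to 0.207 CPM, the count scaled to the library's TMM-adjusted total. The T567A libraries had the highest share of mitochondrially encoded counts, 1.9% and 1.44%, against 0.844% to 1.33% in the other 8, and they also differed most from each other, with a chi-square per degree of freedom of 8.50, against 2.46 to 4.38 in the other lines. The SEs and p-values below rest on a spread estimated over all lines together. They therefore do not reflect the larger spread of the T567A libraries on its own. Ezr stood at 248 and 253 CPM in T567A, 204 and 181 CPM in T567D, 230 and 233 CPM in wild-type, 72.4 and 72.9 CPM in empty-vector and 164 and 166 CPM in parental libraries. The empty-vector libraries were thus the lowest, though not at 0.

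Cells recognise viral nucleic acid by its place and form. RIG-I, the product of Ddx58, and MDA5, the product of Ifih1, are helicases that bind double-stranded RNA in the cytosol and signal through the mitochondrial adaptor Mavs, while Tlr3 and Tlr7 read double-stranded and single-stranded RNA in endosomes and cGAS, the product of Cgas, reads cytosolic DNA. These routes meet at kinases such as Tbk1, which phosphorylates the transcription factor Irf3, an activator of the interferon beta gene. Several of the sensors are themselves induced by interferon, so that in many cell types they are both upstream and downstream of it.

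The cytosolic RNA helicases were highest in T567A cells. Ddx58 (chr4:40203773-40239828, minus strand, GRCm38) had 331 and 321 CPM in T567A, 219 and 222 CPM in T567D, 230 and 233 CPM in wild-type, 232 and 241 CPM in empty-vector, and 166 and 188 CPM in parental libraries. The T567A libraries lay above all others and the parental ones below all others, with the 3 remaining lines close together. In one edgeR quasi-likelihood fit over all 10 libraries, Ddx58 was higher in T567A than in wild-type cells by 0.49 ± 0.063 on the log2 scale (SE; adjusted p = 2.7e-06) and higher in empty-vector than in parental cells by 0.42 ± 0.064 (edgeR adjusted p = 1.0e-05). In bulk RNA, more expressing cells and more RNA per cell cannot be told apart, here or for the genes that follow.

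Ifih1 (chr2:62595798-62646255, minus strand) moved further in the T567A line. It had 215 and 193 CPM in T567A, 72.1 and 66.4 CPM in T567D, 63.8 and 68.9 CPM in wild-type, 80.2 and 82.7 CPM in empty-vector, and 61.5 and 70.4 CPM in parental libraries. The T567A level was 3.07-fold that of wild-type cells, a log2 fold change of 1.62 ± 0.076 (SE; edgeR adjusted p = 7.6e-13), and none of the 8 other libraries came near it. Among the others the empty-vector line was slightly the highest, above the parental line by 0.30 ± 0.078 (edgeR adjusted p = 0.0024).

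Dhx58 (chr11:100694884-100704271, minus strand) encodes LGP2, a relative of RIG-I and MDA5 without their signalling domains that modulates both. It had 85.2 and 89.9 CPM in T567A, 28.0 and 31.9 CPM in T567D, 35.8 and 33.5 CPM in wild-type, 29.1 and 30.5 CPM in empty-vector, and 28.7 and 29.3 CPM in parental libraries. The T567A libraries stood apart from the other 8, at 2.53-fold the wild-type level (log2 fold change 1.34 ± 0.077, SE; edgeR adjusted p = 1.4e-11). Wild-type cells were above parental cells by 0.26 ± 0.084 (edgeR adjusted p = 0.013). An antisense gene, Dhx58os, shares 141 exon bases with Dhx58, and whether counting used the strand is not given in the sources used here. Dhx58os itself had 56 and 105 counts in T567A, 16 and 18 in T567D, 17 and 19 in wild-type, 14 and 7 in empty-vector and 6 and 3 in parental libraries, against 484 to 1615 counts of Dhx58.

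The start regions of these genes can be read beside their levels. RefSeq promoter entries (GRCm38.p6, 250 bases before to 50 after the start) were matched for 7 of the 10 genes and were searched on both strands for GAAANNGAAA, the core of the interferon-stimulated response element bound by interferon-activated factors. Of the 7, Ddx58 and Ifih1 hold it, against 3.99% of the 27025 genes with an entry. In Ddx58 it reads on the opposite strand at bases 3 to 12 of the transcript, and in Ifih1 on the gene's own strand at bases 33 to 42. The capitals mark the core in these short windows, each written 5′ to 3′ on the gene's strand:
Ddx58, chr4:40239804-40239833, minus strand: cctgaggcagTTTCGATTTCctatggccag
Ifih1, chr2:62646206-62646233, minus strand: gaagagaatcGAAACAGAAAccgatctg
A match is a string of letters and no evidence of binding, and its absence concerns these windows alone.

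The single word GAAA, or TTTC on the other strand, was counted as well, after the search for the full core. The 250 bases before the start hold 7 such words in Ddx58, 7 in Tlr3, 5 in Ifih1, 4 in Irf3, 4 in Cgas, 2 in Tbk1 and 0 in Mavs. The median of all 32851 RefSeq promoters is 2, with quartiles of 1 and 4, 86.4% hold at least 1 and 4.25% hold 7 or more. The 150 bases before the start are shown for 3 sensors that were higher in T567A cells and for Mavs, which was lower there, with each word in capitals:
Ddx58, chr4:40239826-40239975, minus strand: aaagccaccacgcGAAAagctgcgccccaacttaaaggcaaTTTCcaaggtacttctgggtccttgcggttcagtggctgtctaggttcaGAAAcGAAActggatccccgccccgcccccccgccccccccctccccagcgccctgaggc
Ifih1, chr2:62646256-62646405, minus strand: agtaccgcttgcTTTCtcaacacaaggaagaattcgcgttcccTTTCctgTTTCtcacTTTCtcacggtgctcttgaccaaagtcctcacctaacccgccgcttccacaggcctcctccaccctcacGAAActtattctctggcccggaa
Tlr3, chr8:45410381-45410530, minus strand: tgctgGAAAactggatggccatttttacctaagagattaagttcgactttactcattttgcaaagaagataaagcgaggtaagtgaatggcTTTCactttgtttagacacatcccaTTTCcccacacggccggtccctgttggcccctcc
Mavs, chr2:131233913-131234062, plus strand: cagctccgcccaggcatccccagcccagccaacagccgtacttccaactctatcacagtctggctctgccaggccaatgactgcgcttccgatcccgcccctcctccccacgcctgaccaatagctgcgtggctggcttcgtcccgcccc
The RefSeq start used for Tlr3 lies inside the GENCODE gene, so its bases are upstream of that RefSeq transcript only. In Ddx58 a pair of the words stands 1 base apart, closer than in the full core. These 4 genes were picked with their levels known, so the difference in word counts is a description. In the same 150 bases Tbk1, also higher in T567A cells, holds 0 words, while Irf3, not called there, holds 3, as Tlr3 does. Base composition differs too. The 250 bases before the start are 65.2% G and C in Mavs and 68.4% in Tbk1, against 48.0% to 53.6% in the 3 sensors. Dhx58 and Zbp1, also higher in T567A cells, had no matched entry.

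The endosomal receptor Tlr3 and the Z-form nucleic acid sensor Zbp1 had the largest fold changes in T567A minus wild type. Tlr3 (chr8:45395665-45411080, minus strand) had 132 and 120 CPM in T567A, 36.5 and 32.3 CPM in T567D, 33.5 and 36.9 CPM in wild-type, 35.5 and 34.5 CPM in empty-vector, and 26.2 and 31.7 CPM in parental libraries. The T567A libraries were above every other library, and the T567D, wild-type and empty-vector libraries overlapped. The T567A level was 3.57-fold that of wild-type cells (log2 fold change 1.84 ± 0.087, SE; edgeR adjusted p = 8.0e-13).

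Zbp1 (chr2:173206612-173218923, minus strand) couples Z-form RNA and DNA to cell death through the kinase Ripk3. It had 83.0 and 88.7 CPM in T567A, 22.5 and 28.1 CPM in T567D, 26.9 and 22.6 CPM in wild-type, 27.0 and 25.0 CPM in empty-vector, and 13.1 and 12.7 CPM in parental libraries. This gave 3 levels, T567A at the top, the other 3 derived lines overlapping in the middle, and the parental line below all of them. The log2 fold change was 1.79 ± 0.096 for T567A minus wild type (SE; edgeR adjusted p = 5.5e-12) and 1.02 ± 0.11 for empty vector minus parental (edgeR adjusted p = 1.9e-07).

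**Figure D1:**
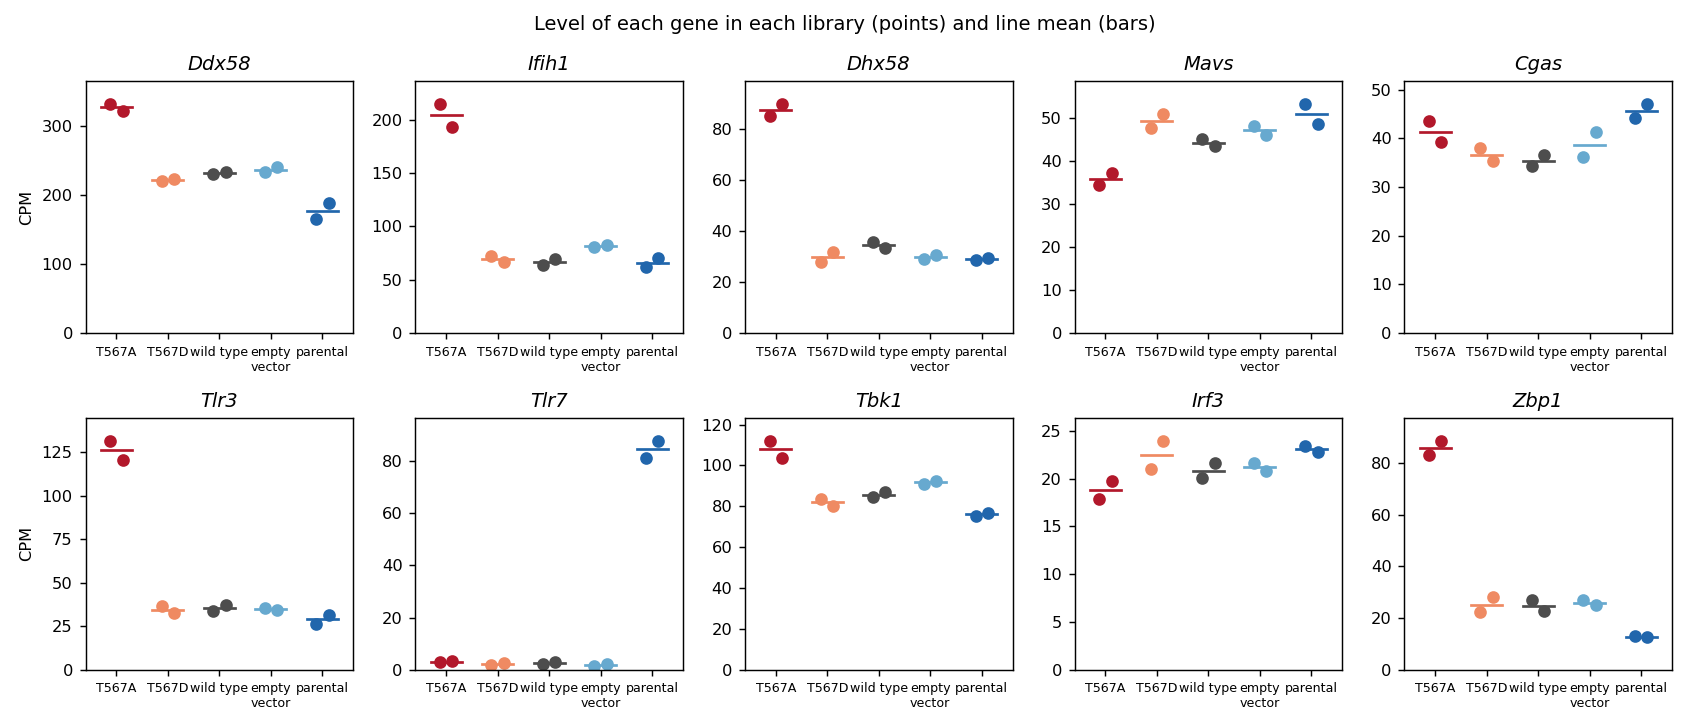
Level of each of the 10 genes in CPM (vertical axes, each from 0) in the 5 lines, with a point for each library and a bar for the mean of the 2. Ifih1, Dhx58, Tlr3 and Zbp1 stand at 2.53-fold to 3.57-fold the wild-type level in T567A cells, and Tlr7 is high in the parental line alone.

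Among the signalling partners, Mavs was lower and Tbk1 higher in T567A cells. Mavs (chr2:131234063-131248025, plus strand), the adaptor that RIG-I and MDA5 share, had 34.5 and 37.2 CPM in T567A, 47.8 and 51.0 CPM in T567D, 45.0 and 43.4 CPM in wild-type, 48.2 and 46.0 CPM in empty-vector, and 53.3 and 48.5 CPM in parental libraries. The T567A libraries were the lowest of the 10, and Mavs fell by 0.30 ± 0.080 on the log2 scale against wild-type cells (SE; edgeR adjusted p = 0.0048) and by 0.46 ± 0.079 against T567D cells (edgeR adjusted p = 7.5e-05). The T567D, wild-type, empty-vector and parental libraries lay between 43.4 and 53.3 CPM.

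Tbk1 (chr10:121546455-121586787, minus strand), the kinase downstream of the adaptors, had 112 and 104 CPM in T567A, 83.5 and 80.2 CPM in T567D, 84.6 and 86.8 CPM in wild-type, 90.8 and 92.5 CPM in empty-vector, and 75.4 and 76.9 CPM in parental libraries. It rose in T567A cells by 0.33 ± 0.065 on the log2 scale against wild-type cells (SE; edgeR adjusted p = 3.7e-04) and in empty-vector cells by 0.27 ± 0.065 against parental cells (edgeR adjusted p = 0.0015).

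Irf3 (chr7:44997648-45002848, plus strand), the factor that Tbk1 phosphorylates, was the one gene of the 10 not called over the 5 lines. It had 17.8 and 19.7 CPM in T567A, 21.0 and 24.0 CPM in T567D, 20.0 and 21.7 CPM in wild-type, 21.6 and 20.8 CPM in empty-vector, and 23.4 and 22.8 CPM in parental libraries. The T567A libraries were the lowest, but in T567A minus wild type the log2 fold change was -0.15 ± 0.098 (SE; edgeR adjusted p = 0.25) and the test of any difference over the 5 lines gave an edgeR adjusted p of 0.067. In T567A minus T567D it was called lower, at -0.26 ± 0.098 (edgeR adjusted p = 0.037). That call was lost in 6 of 20 alternative settings, among them the fits without T567A replicate 2 and without T567D replicate 3, with an edgeR adjusted p of up to 0.29. Irf3 shares 88 exon bases with Bcl2l12 on the opposite strand, which had 68 to 114 counts a library.

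Cgas (chr9:78430526-78443237, minus strand), whose enzyme makes the messenger that activates STING, had its highest mean in parental cells, though not set apart from T567A cells. It had 43.5 and 39.2 CPM in T567A, 37.9 and 35.4 CPM in T567D, 34.4 and 36.5 CPM in wild-type, 36.2 and 41.2 CPM in empty-vector, and 44.1 and 47.1 CPM in parental libraries. T567A minus wild type gave 0.22 ± 0.086 on the log2 scale at an edgeR adjusted p of 0.047, a call that was lost in 19 of 20 alternative settings, with adjusted p between 0.020 and 0.27. Empty vector minus parental gave -0.24 ± 0.084 (edgeR adjusted p = 0.022), lost in 7 of 20 settings, and wild type minus parental gave -0.36 ± 0.085 (edgeR adjusted p = 0.0010). T567D minus parental gave -0.31 ± 0.084 (edgeR adjusted p = 0.0034), while T567A minus parental was not called, at -0.14 ± 0.084 (edgeR adjusted p = 0.14). The empty vector minus parental call ended without parental replicate 3 or empty-vector replicate 2, and its adjusted p reached 0.27. A pseudogene, Gm8093, overlaps 201 exon bases of Cgas.

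Tlr7 (chrX:167304929-167330558, minus strand), the receptor for single-stranded RNA, was high in the parental line alone. It had 2.90 and 3.28 CPM in T567A, 1.96 and 2.51 CPM in T567D, 2.15 and 3.08 CPM in wild-type, and 1.30 and 2.08 CPM in empty-vector libraries, against 81.2 and 87.8 CPM in parental libraries. In raw counts this was 42 and 59 in T567A, 34 and 43 in T567D, 37 and 54 in wild-type, 23 and 36 in empty-vector and 1397 and 1505 in parental libraries. Every derived library was thus above the floor of 3 counts and far below either parental one. Tlr7 fell by 5.64 ± 0.15 on the log2 scale in empty-vector against parental cells (SE; edgeR adjusted p = 8.4e-18), a 49.9-fold lower level. The value was -4.76 ± 0.13 in T567A, -5.23 ± 0.14 in T567D and -5.01 ± 0.14 in wild-type cells against the same parental libraries (edgeR adjusted p of 2.0e-17, 2.1e-17 and 2.2e-17). Within the derived lines, T567A minus empty vector was called, at 0.88 ± 0.25 (edgeR adjusted p = 0.0060), while wild type minus empty vector gave 0.63 ± 0.25 (edgeR adjusted p = 0.095).

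Most tested genes beside Tlr7 on the X chromosome were also lower in empty-vector than in parental cells, by less. Of the 6 other tested genes with a start within 1 Mb, 5 were called lower by edgeR and Tceanc was not called, where 27.2% of all tested genes were called lower. Tmsb4x, which encodes an actin-binding peptide and starts 121 kb away, averaged 103 CPM in empty-vector and 296 CPM in parental cells, a log2 fold change of -1.53 ± 0.062 (SE; edgeR adjusted p = 1.2e-14). Prps2, a nucleotide synthesis enzyme that starts 52.2 kb away on the other side, averaged 71.8 CPM in empty-vector and 142 CPM in parental cells, a change of -0.99 ± 0.073 (edgeR adjusted p = 2.3e-10). In T567A, T567D and wild-type cells Tmsb4x averaged 154, 134 and 130 CPM and Prps2 93.0, 82.7 and 76.4 CPM. These levels lie above empty-vector and below parental cells. Rab9 averaged 26.3 CPM in T567A and 27.0 CPM in parental cells, against 17.4 CPM in empty-vector cells. The lower levels of the neighbours were thus not equal over the derived lines. Tlr8, the related receptor between Tmsb4x and Tlr7, had 0 or 1 counts in every library.

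**Figure D2:**
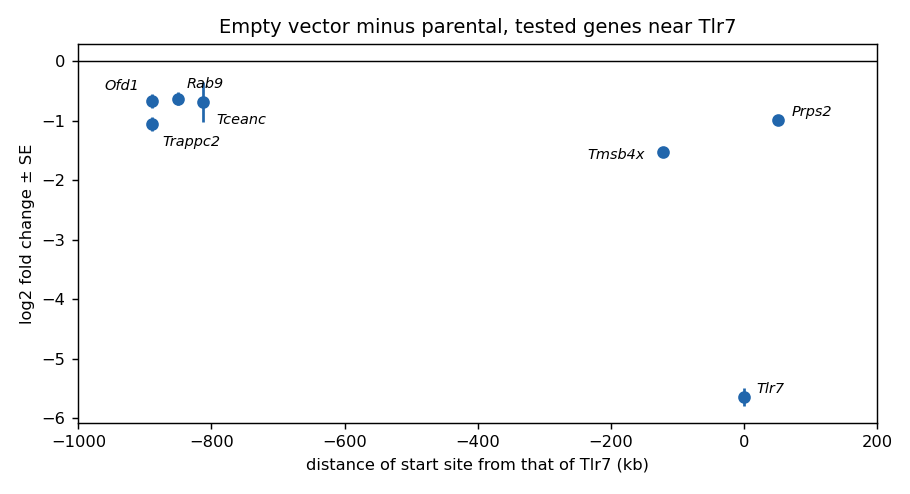
Log2 fold change of empty vector minus parental with its SE (vertical axis) for Tlr7 and the 6 other tested genes with a start within 1 Mb, against the distance of their start from that of Tlr7 in kb (horizontal axis, lower coordinates to the left). Tlr7 lies at -5.64, and the others lie between -0.63 and -1.53.

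Across the 5 lines, 9 of the 10 genes differed by the edgeR F test at an adjusted p under 0.05, where 78% of all 12595 tested genes did, so a call in this test sets these genes little apart. All 10 passed the filter on low counts. In T567A minus wild type, 7 were called higher (background 20.4%) and 1 lower (background 19.1%), with a median log2 fold change of 0.41 against -0.00 over all tested genes. The 7 were Ddx58, Ifih1, Dhx58, Cgas, Tlr3, Tbk1 and Zbp1, and the 1 was Mavs. In T567A minus T567D, 6 were called higher (background 22.5%) and 2 lower (background 21.6%), with a median of 0.52. The sizes were 1.87 ± 0.087 for Tlr3, 1.77 ± 0.096 for Zbp1, 1.56 ± 0.076 for Ifih1, 1.55 ± 0.079 for Dhx58, 0.56 ± 0.063 for Ddx58 and 0.40 ± 0.065 for Tbk1 (log2, SE, n = 2 libraries a line). T567A minus empty vector shares its T567A libraries with both comparisons. It had 8 genes called in either direction, where 46.4% of all genes were, with 1.84 ± 0.087 for Tlr3, 1.72 ± 0.095 for Zbp1, 1.56 ± 0.079 for Dhx58, 1.32 ± 0.075 for Ifih1 and -0.39 ± 0.079 for Mavs.

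**Figure D3:**
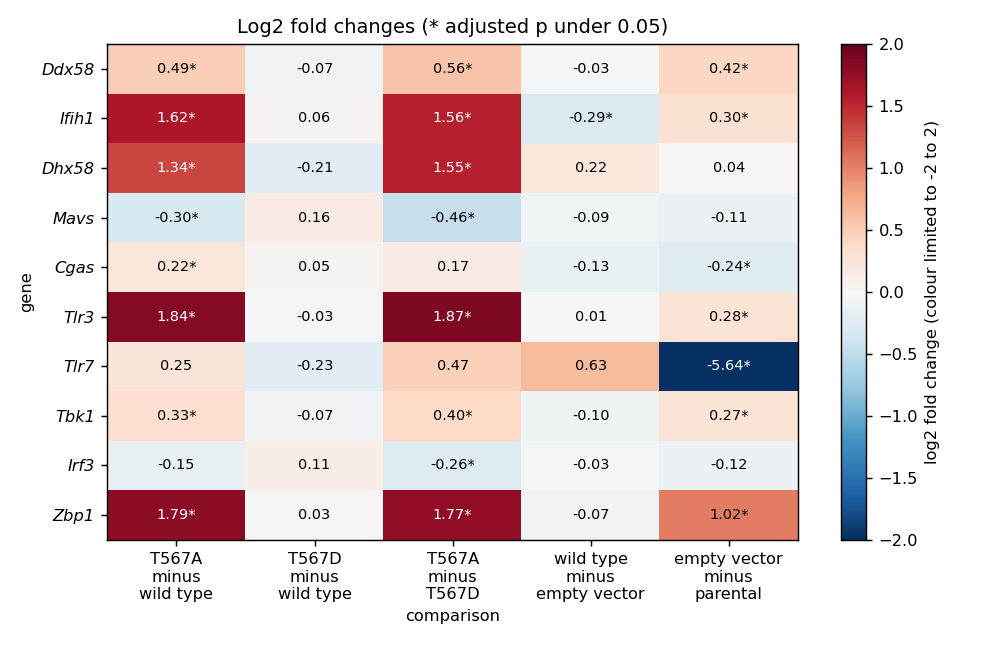
Log2 fold change (colour and number) of the 10 genes (rows) in the 5 main comparisons (columns), the first line of a column minus the second, with a star where the edgeR adjusted p was under 0.05. The T567A columns carry values from -0.46 to 1.87, T567D minus wild type carries no star, and the empty vector minus parental column holds the -5.64 of Tlr7.

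None of the genes was called between cells with phosphomimetic and with wild-type ezrin. In T567D minus wild type, 0 of the 10 were called by edgeR, where 0.818% of all genes were called higher and 0.524% lower. With so few calls over all genes, this count does not set the 10 genes apart. At an unadjusted p under 0.05, 1 of the 10, Dhx58, passed, at -0.21 ± 0.084 on the log2 scale, and DESeq2 and limma also called 0. The 95% interval of the difference ran from -0.23 to 0.16 for Tlr3, from -0.10 to 0.23 for Ifih1, from -0.19 to 0.25 for Zbp1 and from -0.20 to 0.063 for Ddx58 (log2). The interval of Dhx58, from -0.38 to -0.036, excluded 0, and that of Mavs ran from -0.00059 to 0.32. These intervals are not adjusted for the number of genes tested. The difference between T567A and T567D cells was tested directly, as given above. T567D minus empty vector had 1 gene called, Ifih1, at -0.23 ± 0.078 (edgeR adjusted p = 0.042), where 17.8% of all genes were called.

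Wild type minus empty vector had 0 genes called higher (background 8.25%) and 1 lower (background 7.36%), counts close to the shares over all genes. The gene called lower was Ifih1, at 66.4 CPM on average in wild-type and 81.4 CPM in empty-vector cells, a log2 fold change of -0.29 ± 0.078 (SE; edgeR adjusted p = 0.013). Leaving out wild-type replicate 1, empty-vector replicate 2 or empty-vector replicate 3 ended the call, with an edgeR adjusted p of up to 0.16. The other 9 lay between -0.13 and 0.63, the extremes being Cgas and Tlr7. At an unadjusted p under 0.05, 3 passed, Ifih1, Dhx58 and Tlr7, and DESeq2 and limma each called 1. With upper-quartile scaling 65.0% of the calls over all genes in this comparison were higher, and with TMM scaling 52.8%.

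Empty vector minus parental, a comparison of 1 derived line with the parental line, had 5 genes called higher (background 27.4%) and 2 lower (background 27.2%), with a median of 0.15. Zbp1, Ddx58, Ifih1, Tlr3 and Tbk1 were higher, and Tlr7 and Cgas were lower. The Tlr3 value was 0.28 ± 0.096 (SE; edgeR adjusted p = 0.019) and was lost in 5 of 20 settings, among them the fits without parental replicate 1, empty-vector replicate 2 or empty-vector replicate 3 (edgeR adjusted p of up to 0.33). The call of Ifih1 was lost without parental replicate 1 (edgeR adjusted p = 0.082). The other derived lines were compared with the same 2 parental libraries. Wild type minus parental called 8 genes (56.2% of all genes), with 0.94 ± 0.12 for Zbp1 and 0.39 ± 0.064 for Ddx58. T567D minus parental called 5 (55.4% of all genes), with 0.97 for Zbp1 and 0.32 for Ddx58, and T567A minus parental called 9 (62.1% of all genes), with 2.74 for Zbp1 and 0.88 for Ddx58.

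Per transcript length, in the deposited RPKM values, the order of the genes differed by line. Ddx58 led in every line, at 42.7 ± 0.58 RPKM in T567A, 31.0 ± 0.28 in wild-type and 22.9 ± 2.1 in parental cells (SD, n = 2). In T567A cells Tbk1, Dhx58, Ifih1, Zbp1 and Tlr3 followed at 25.5, 24.7, 23.0, 22.5 and 22.3 RPKM, with SDs of 1.14 to 1.54 RPKM, and the library values of neighbours in this order overlapped. In wild-type cells Tbk1 followed at 20.7 RPKM and Mavs at 12.5 RPKM, ahead of Dhx58 at 9.98, Cgas at 8.10, Ifih1 at 7.67, Zbp1 at 6.62 and Tlr3 at 6.38 RPKM. In parental cells Tlr7 was second at 18.9 ± 1.1 RPKM, and Zbp1 was last at 3.32 RPKM. Tlr7 was last in all derived lines, at 0.70 RPKM in T567A and 0.39 RPKM in empty-vector cells.

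**Figure D4:**
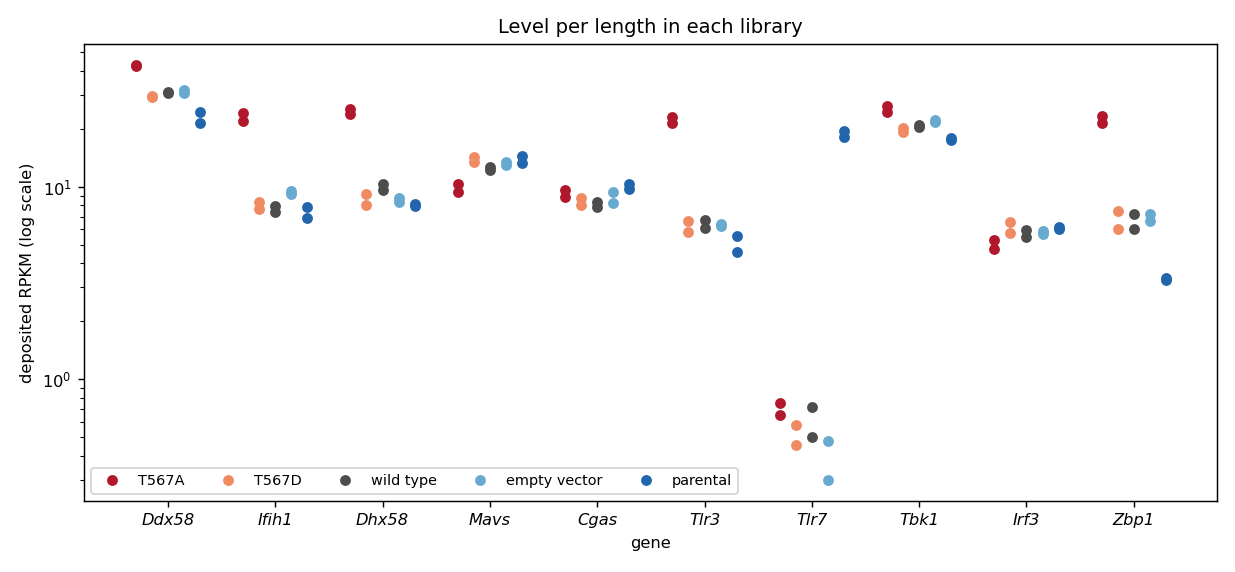
Deposited RPKM of the 10 genes in each library (vertical log axis), coloured by line, with 2 points a line. Ddx58 is highest in every line, and Tlr7 lies at 18.9 RPKM on average in parental cells and under 1 RPKM in the derived lines.

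For each gene the most similar profiles among all genes with a mean of at least 5 CPM were taken by Pearson r of log2 CPM over the 10 libraries, which share 5 lines, so r is a description. Ifih1 was closest to Trim25 and Trim30a (r = 0.994 each), Tlr3 to Iigp1 and Irgm2 (0.992 each), Zbp1 to Parp10 and Ecscr (0.993 each), Dhx58 to Tmem173 (0.993) and Gbp5 (0.990), and Ddx58 to Ecscr (0.987) and Gbp9 (0.985). Tmem173 encodes STING, and Gbp5, Gbp9, Iigp1 and Irgm2 are interferon-inducible GTPases. Mavs was closest to Nenf (0.981) and Pitx1 (0.980), Tbk1 to Cenpj (0.987) and Gm7072 (0.985), Cgas to Naa16 (0.981) and Xpo4 (0.979), Tlr7 to Fem1b and Aifm1 (0.991 each) and Irf3, with the weakest likeness, to Tmem41a (0.939) and Mrps24 (0.938).

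Other genes of the pathway were followed in 6 lists, whose counts in T567A minus wild type stand beside 20.4% of all tested genes called higher and 19.1% called lower. Among 22 tested RNA sensors and direct effectors other than the 10, 17 were called higher and 2 lower in T567A minus wild type, with a median log2 fold change of 0.89 against -0.00 over all genes. Ifit1, which binds RNA lacking the marks of self, and its partner Ifit3 rose by 1.95 ± 0.058 and 1.88 ± 0.063, and Ifit1 averaged 772 CPM in T567A and 200 CPM in wild-type cells. The helicase Ddx60 rose by 1.69 ± 0.12, at 54.2 CPM in T567A and 16.7 CPM in wild-type cells. In T567D minus wild type 0 of these 22 were higher (background 0.818%) and 1 was lower (background 0.524%). It was Oas3, which makes the activator of RNase L, at -0.29 ± 0.069 (edgeR adjusted p = 0.040). In T567A minus T567D 18 were higher (background 22.5%) and 2 lower (background 21.6%).

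Of 19 tested DNA sensors and genes of the STING branch, 8 were called higher and 1 lower in T567A minus wild type (median 0.28). Ifi204, Ifi203 and Ifi211 of the interferon-inducible p200 family rose by 1.20 ± 0.084, 1.19 ± 0.094 and 1.13 ± 0.077, though near-identical copies in this family make the split of reads among them uncertain. Of 25 adaptors and ubiquitin ligases, 9 were higher and 2 lower (median 0.03, with 20.4% and 19.1% of all genes), led among well expressed genes by the RIG-I ubiquitin ligases Rnf135 at 1.08 ± 0.11 and Trim25 at 0.87 ± 0.061. Trim14, the largest change in that list, was near 1 CPM, with 1.71 CPM in T567A and 0.548 CPM in wild-type cells. Unc93b1, the chaperone that Tlr3 and Tlr7 need to reach endosomes, averaged 10.4 CPM in wild-type and 6.49 CPM in empty-vector cells, the largest change of its list there (0.67 ± 0.14, edgeR adjusted p = 0.0025).

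Of 19 kinases and transcription factors downstream, 9 were higher and 4 lower in T567A minus wild type (median 0.18). Stat2 and Irf7, factors that carry and amplify the interferon response, rose by 1.40 ± 0.080 and 1.07 ± 0.075. Irf7 averaged 327 CPM in T567A and 156 CPM in wild-type cells. Of 14 nucleases that remove self nucleic acid, 6 were higher and 1 lower (median 0.14), among them Pnpt1, an exonuclease of mitochondrial RNA, at 1.04 ± 0.077 and Trex1, which degrades cytosolic DNA, at 0.83 ± 0.12. Rnaset2b had 6.09 CPM in T567A and 1.16 CPM in wild-type cells, but its near-identical copy Rnaset2a makes its count uncertain.

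Of 20 brakes on the pathway, 4 were higher and 5 lower (median -0.08), shares close to the 20.4% higher and 19.1% lower of all genes. Usp18, which limits signalling from the interferon receptor, rose by 1.58 ± 0.062, while Nlrc3, an inhibitor of STING signalling, and the phosphatase Dusp4 fell by 1.09 ± 0.19 and 1.05 ± 0.16. In T567D minus wild type, Oas3 was the one called gene among the 119 tested in the 6 lists. This is close to the share over all genes, of which 0.818% were called higher and 0.524% lower. An unadjusted p under 0.05 was found for 11 of the 119. In empty vector minus parental the lists were mixed, with 9 higher and 5 lower of the 22 RNA sensors and effectors and 5 lower and the other 9 not called of the 14 nucleases, of which Rnaseh2c fell by 0.64 ± 0.086. Over all genes 27.4% were higher and 27.2% lower in that comparison.

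**Figure D5:**
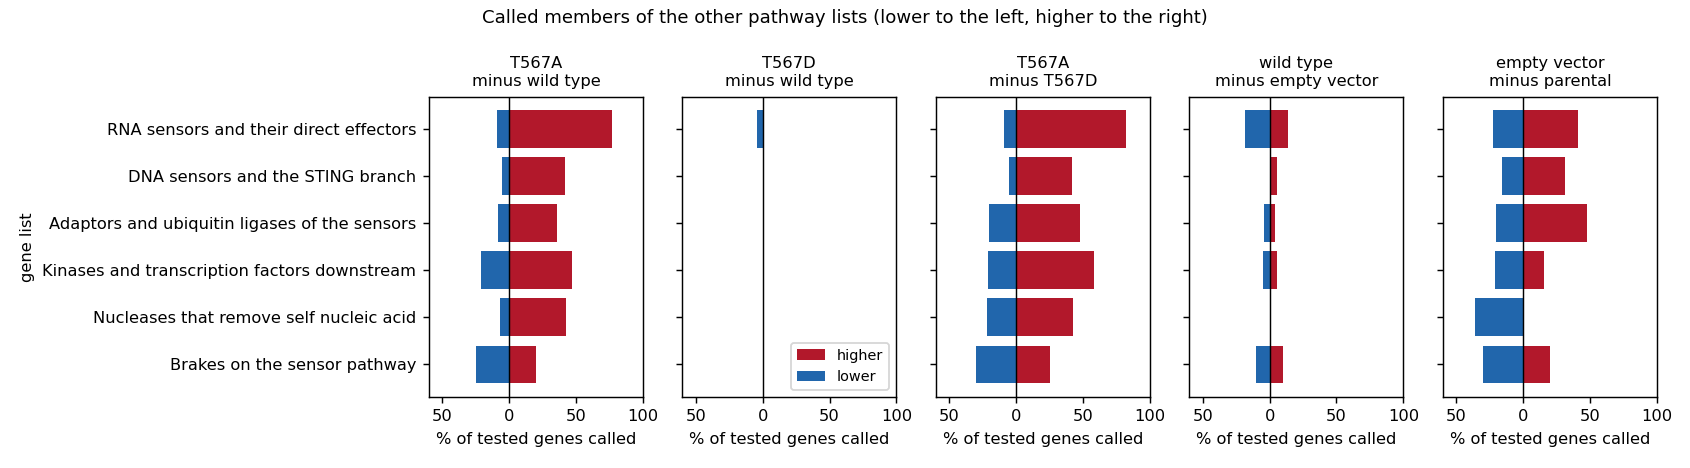
Share of tested genes of 6 pathway lists called higher (to the right) or lower (to the left) by edgeR in each of the 5 main comparisons, in percent of the list's tested genes. In T567A minus wild type 17 of 22 RNA sensors and effectors were higher (20.4% of all genes) and 2 lower (19.1% of all genes). T567D minus wild type shows 1 called gene, where 0.818% of all genes were higher and 0.524% lower.

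Interferon genes themselves were scarcely detected. Of 20 type I and type III interferon genes, 16 had no count in either T567A library, 19 in T567D, 17 in wild-type, 18 in empty-vector and 19 in parental libraries. Ifnb1, which encodes interferon beta, had 16 and 18 counts in T567A, 3 and 3 in T567D, 4 and 6 in wild-type, 9 and 4 in empty-vector and 5 and 3 in parental libraries. It passed the filter on low counts through the T567A libraries, so no test is given.

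Markers of the labelled cell type and of immune cells were read beside these results, since macrophages and dendritic cells express Tlr7 and Zbp1. Of 10 osteoblast markers, Dlx5 was at 0 in all lines and Sp7, Bglap and Ibsp were at or near 0, and the summed level was 5185 to 5209 CPM in T567A, 5111 to 5516 CPM in T567D, 4526 to 4634 CPM in wild-type, 4458 to 4522 CPM in empty-vector and 7168 to 7317 CPM in parental libraries. Within this sum Col1a1, the main bone collagen, and Alpl, alkaline phosphatase, moved in opposite directions in both comparisons that follow. In T567A minus wild type the log2 fold change was 1.22 ± 0.070 for Col1a1 and -1.75 ± 0.18 for Alpl, and in empty vector minus parental it was -2.49 ± 0.072 for Col1a1 and 1.51 ± 0.21 for Alpl (SE; edgeR adjusted p of up to 4.2e-06). Col1a1 was also called higher in T567D, at 735 CPM, than in wild-type cells, at 259 CPM (edgeR adjusted p = 1.4e-11). Of 12 immune markers, Itgax, Adgre1, Siglech and Cd3e were at 0 in all 10 libraries and Ptprc, the pan-leukocyte gene, had 6 and 0 counts in T567A, 2 and 0 in T567D and 0 in the other lines. The summed level of that list was 1593 to 1725 CPM in T567A, 1376 to 1391 CPM in T567D, 1417 to 1427 CPM in wild-type, 1588 to 1631 CPM in empty-vector and 1215 to 1225 CPM in parental libraries. Nearly all of it was Csf1r, with 1619 CPM in T567A and 1180 CPM in parental cells. Csf1r was 0.23 ± 0.056 higher in T567A than in wild-type cells (log2, SE; edgeR adjusted p = 0.0030). Lyz2 went the other way, at 0.410 CPM in T567A and 1.73 CPM in wild-type cells. It passed the filter on low counts through lines where it was higher than in T567A, so no test of Lyz2 is given. The part of these markers and of the mitochondrial share in these results, Tlr7 included, was not tested.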

How the data were processed

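Raw gene counts and RPKM values were deposited for each of the 10 libraries over the same gene names. All deposited counts are whole. In the deposited tables RPKM is the count over a gene length and a read total. Libraries were strand-marked poly-A preparations sequenced on a DNBSEQ platform, per the labels' protocols, and per the submitters' processing notes the build was GRCm38. For the aligner, counter, annotation and strand setting, nothing is stated in the sources used.

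The test was edgeR 4.0.16 (R 4.3.3), after filterByExpr (minimum count 10, minimum total 15; 12595 genes) and TMM scaling, in 1 robust quasi-likelihood fit of 5 group means over all libraries. Two-sided p-values were Benjamini-Hochberg adjusted over all tested genes, and an adjusted p under 0.05 was a call. The edgeR test gives no SE, so each SE was derived as the absolute log2 fold change over the square root of its F statistic. The intervals were built from that SE and a t quantile, and both are approximate. CPM uses the TMM-scaled totals, and each log2 fold change is named as the line on top minus the other. RPKM served to compare levels between genes. Positions are from GENCODE M21 and promoters from RefSeq.

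The 10 genes, the lists and the tests were chosen with earlier results of these data known. Named were the 10 genes and Ezr, up to 3 called genes a list and comparison with the largest change (mean of 1 CPM or more in one of the lines), and the 2 most alike genes for each of the 10. The neighbours of Tlr7 were named after their values were seen. One named gene and 1 motif search are not reported here. One listed adaptor had no matching gene name.

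On simulated counts of 12360 genes for T567A minus wild type, recovery was 70% at a 1.5-fold change and 87.9% at a 2-fold change, and 8 of 165 calls were false. The simulation changed only 200 genes and gave all lines the same spread per gene. In the data 4983 genes were called in this comparison, and the T567A libraries differed most from each other. The simulated shares are therefore no error rate for the calls reported here. The alternatives tried were DESeq2 1.42.0, upper-quartile and RLE scaling, a filter of 5 CPM in 2 libraries or none, a replicate block, only the 2 lines compared, an adjusted p under 0.01, limma 3.58.1 on log2(RPKM + 1) and log2(RPKM + 0.1), and each library left out. Figures used matplotlib 3.10.9.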

Additional observations from a re-analysis of the deposited data

How the results depend on the processing

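Of the 24 called values of the 10 genes in the 5 main comparisons, 17 held in all 20 alternatives, 7 were lost in at least 1, and 0 changed direction. The number of the 10 genes called in wild type minus empty vector, 1 with the reported settings, was 0 at an adjusted p under 0.01 and with the replicate block, 2 with the 2 lines alone and with upper-quartile scaling, and 0 to 2 with a library left out. The same-numbered libraries did not vary together in the 4 pairs of lines that carry the same 2 numbers (r of -0.0995 to -0.0074). Other pairs of lines were not checked, so a batch shared among them was not tested. With the replicate block, wild type minus empty vector had 1082 calls over all genes, and the calls lost among the 10 genes included Mavs in T567A minus wild type (edgeR adjusted p = 0.051), Irf3 in T567A minus T567D (0.083) and Tlr3 in empty vector minus parental (0.18). Directions that turned belonged to uncalled values. These were near 0 except Tlr7 in T567D minus wild type, at -0.23 ± 0.24 (log2, SE) on few counts. In wild type minus empty vector, Ddx58 was 0.0046 with upper-quartile scaling and 0.0065 with the replicate block, Irf3 was 0.0085 with upper-quartile scaling and -0.092 to 0.025 with a library left out, Tlr3 was -0.071 to 0.071 and Zbp1 -0.21 to 0.041 with a library left out. In T567D minus wild type, leaving out a library gave -0.12 to 0.054 for Tlr3, -0.46 to 0.058 for Tlr7, -0.14 to 0.18 for Zbp1 and -0.0011 to 0.10 for Cgas. The cause was not tested. Over all genes, calls ranged from 853 to 2955 in wild type minus empty vector (1966 with the reported settings), from 47 to 302 in T567D minus wild type (169) and down to 3314 in T567A minus wild type without wild-type replicate 1 (4983). With 2 libraries a line, Tlr7 within the derived lines and Ifnb1 rest on few counts.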
